A study of Homo sapiens with 4 samples.

Results

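Genes with several binding intervals for MARF1 were taken from the final list of an iCLIP study, in which UV light crosslinks a protein to the RNA it touches and the RNA recovered with the protein is sequenced. A gene symbol was selected on the measured peak calls themselves, when it stood in 2 or more intervals that both replicates shared. This rule took 208 of the 282 shared intervals and 56 of the 117 gene symbols in the list (47.9% of symbols), while 61 symbols had 1 interval and 13 intervals had no symbol. Because the calls chose the members, the number of intervals, their fold enrichment, their q-values and their spacing are given as a description and support nothing. The human HEK293-Trex cell line, derived from embryonic kidney, was used throughout. F-MARF1ΔNYN, a FLAG-tagged MARF1 without its nuclease domain, was induced with 100 ng/mL doxycycline for 12 h in 2 replicates. The 2 control replicates came from cells without a FLAG-tagged protein, and the sources used here do not state whether these cells received doxycycline. All 4 libraries were made from cells given 400 mJ/cm2 of UV at 254 nm, followed by immunoprecipitation with a FLAG antibody. Each F-MARF1ΔNYN replicate was compared with the control of the same number, so no value belongs to a single library, and peak lists do not allow a check of the cell line by its marker genes.

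MARF1 is an endoribonuclease that is needed for oocyte development. Its NYN domain cuts RNA, while RRM and LOTUS domains can contact RNA, and a C-terminal motif binds the decapping machinery together with EDC4, a protein of P-bodies. Proteins that act on messenger RNA stability often bind the 3'UTR, the stretch between the stop codon and the poly(A) tail, where several binding sites can lie side by side.

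The RNA at the summits of named genes is shown first, because the position of a summit is the most local information the peak lists hold. Each line gives 30 nt of the transcribed strand in hg19 (GRCh37), and capitals mark the bases from the summit of one replicate to that of the other. Intervals of the 56 symbols were eligible when they held both summits, at most 10 bp apart, lay in a 3'UTR and had no near-identical copy in another transcript. Shown are those of the genes whose intervals are listed one by one below, with the stronger of 2 for TXLNA.
TXLNA, chr1:32662207-32662236, plus strand: guugcaaacuugCCAGGGuauuagccagug
NFAT5, chr16:69732870-69732899, plus strand: gguuaugagGAGGAUCAGCCacacaaucca
ZNF609, chr15:64976273-64976302, plus strand: ccauggcagaucCUGAUgccugccgggccu
LNPEP, chr5:96368097-96368126, plus strand: cuuaaccuuauugCCUGugugggugacagc
LNPEP, chr5:96369954-96369983, plus strand: uuacuucauugugUGCCaaggccuuuccau
LNPEP, chr5:96370956-96370985, plus strand: auguuauugguuuUGUAccuaguccuuugc
TFRC, chr3:195778018-195778047, minus strand: guuuaguugcagACUCAGuuugucagacuu
CBX6, chr22:39258417-39258446, minus strand: gccucuuugggacggGgaugguuugaggaa
KIAA0430, chr16:15689373-15689402, minus strand: cuuccucucuagGUGCCUgagguguccgcu
IGF2BP1, chr17:47129293-47129322, plus strand: cccccaccucuGUCUCCCUgucuucuuuag
ATXN7L3, chr17:42270271-42270300, minus strand: ugacugacaugGGUGGAGGUgacccugagc
Among all 26 eligible intervals, the GC content of the 30 nt ranged from 33.3% to 66.7%, with a median of 50%. KIAA0430 is an older symbol of MARF1 itself.

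The number of intervals per symbol ranged from 2 to 13, with a median of 3. Exactly 2 intervals were found for 26 symbols, just inside the rule, and exactly 1 for the 61 symbols just outside it. At the other end, 9 symbols had 6 or more and together held 79 of the 208 intervals (38.0%, 95% Wilson interval 31.7% to 44.7%). These were LNPEP with 13, CBX6 and KIAA0430 with 12 each, IGF2BP1 and LINC00657 with 9 each, and TFRC, ZNF609, MYC and C16orf45 with 6 each. The intervals of a gene were not always separate. A broad peak of one replicate could overlap several peaks of the other, and each overlap became an interval of its own: 93 of the 208 intervals (44.7%, 95% Wilson interval 38.1% to 51.5%) shared a peak of at least 1 replicate with another interval, under the same symbol or not. The 208 intervals came from 184 peaks of replicate 1 and 176 peaks of replicate 2. When intervals of the same symbol that shared a peak were joined, 153 separate sites remained, or 152 when an interval under MYC was also joined with one under HAUS6, and 48 of the 56 symbols still had 2 or more. The 8 symbols left with 1 site were CDON, EML4, FAF2, KLHL15, MET, RP11-579D7.2, WEE1 and ZC3H4. Stricter rules gave lower counts. When intervals under 500 bp apart were joined instead, 99 sites remained and 29 symbols had 2 or more. A reciprocal overlap of 50% between replicates left 27 symbols with 79 intervals.

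**Figure D1:**
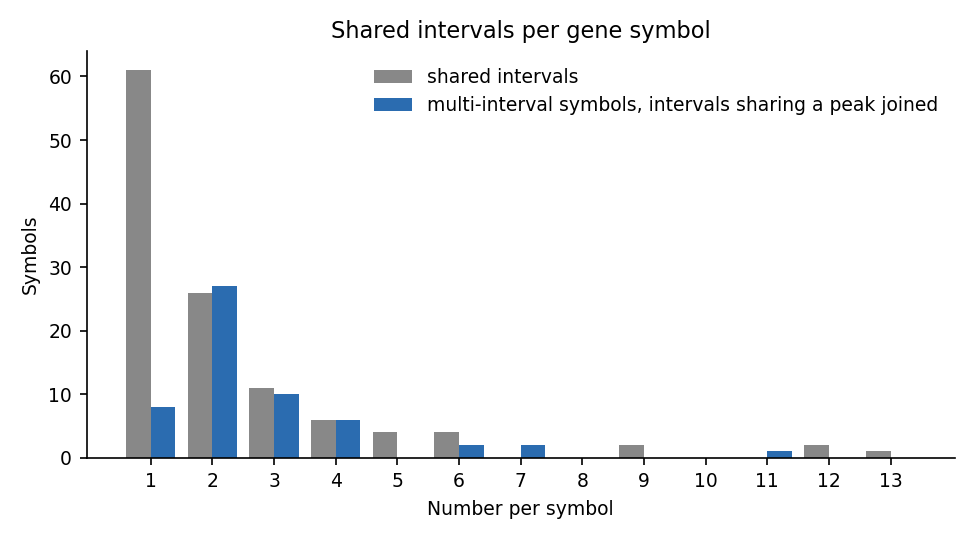
Number of gene symbols (vertical axis) by the number of shared intervals per symbol (grey bars, all 117 symbols) and by the number of sites after intervals that share a peak were joined (blue bars, the 56 symbols with 2 or more intervals). The grey bars run from 61 symbols with 1 interval to 1 symbol with 13, and 8 symbols of the blue bars have 1 site.

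Symbols did not always name the gene under the interval. In GENCODE release 44 on GRCh37, 184 of the 208 intervals (88.5%, 95% Wilson interval 83.4% to 92.1%) lay in the gene of their symbol or of its current name, and 8 symbols, 7 of them clone-based names, had no interval in a gene so named. A clone-based gene may be listed under another name, so for these 7 the mismatch of name alone does not show another gene. The intervals under RP11-283I3.6, for example, lay in exons of ENSG00000261799, a gene given by its identifier only. All 6 intervals under C16orf45 lay in coding exons of MARF1, as did 11 of the 12 under KIAA0430, so that MARF1 held 18 intervals. Likewise, 2 intervals under AC008865.1 lay in the 3'UTR of LNPEP, which then held 15, and 3 under RP11-579D7.2 lay in the 3'UTR of ADCY6, which then held 8. CDON held 4 together with the 2 under RP11-680F20.12, and 1 of the 6 intervals under MYC lay in the 3'UTR of HAUS6 on another chromosome. For 8 of the 208 intervals, the middle base lay in exons of more than 1 GENCODE gene, and each was counted for 1 of them. These include intervals under RP11-579D7.2 and RP11-680F20.12, counted for ADCY6 and CDON. Counted by GENCODE gene, 51 genes had 2 or more intervals in exons, with 210 intervals in all. These include LCOR with 6, of which 5 have no symbol and 1 a clone-based one, and IRS2 with 2 under different symbols, which the rule by symbol leaves out. A near-identical copy in another transcript was found for 11 of the 208 intervals (5.29%, 95% Wilson interval 2.98% to 9.22%), among them intervals of PGAM4, GLT8D2, RP11-549K20.1 and LINC00657, so the gene of origin of their reads cannot be told apart. Another 8 intervals were under 30 bp and were not searched for copies.

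LNPEP, which encodes an aminopeptidase of endosomes and the cell surface, had the most intervals by deposited symbol, 13, while MARF1 had more by GENCODE gene. By GENCODE, all 13 lay in its 3'UTR of 8980 nt, at chr5:96367168-96371463. Interval middles lay from 2983 to 7120 nt after the stop codon. The authors' annotation, by HOMER, gave all 13 as intergenic. From the stop codon onwards, the fold enrichment over the control was 9.08, 7.52, 9.98, 6.14, 6.14, 9.72, 16.4, 16.4, 16.4, 8.06, 9.74, 6.96 and 11.6 in replicate 1 and 7.15, 7.50, 9.54, 6.99, 11.9, 9.06, 9.06, 11.6, 9.06, 17.0, 17.0, 17.0 and 9.53 in replicate 2. The values differed in order between replicates: 16.4, the highest in replicate 1, belonged to a peak that spanned 3 intervals, while 17.0, the highest in replicate 2, belonged to another peak that spanned the 3 intervals farther downstream. Joined by shared peaks, the 13 intervals made 7 sites.

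CBX6, a subunit of Polycomb repressive complexes, had 12 intervals in a 3'UTR of 4787 nt, at chr22:39257456-39261649 on the minus strand, and the middles of the first and last lay 83.5% of the 3'UTR apart. Its density of 2.51 intervals per kb was the highest of the 48 symbols with 2 or more intervals in a 3'UTR, while by GENCODE gene the 8 intervals in the 3'UTR of ADCY6, of 2397 nt, gave 3.34 per kb. From the stop codon onwards, fold enrichment was 7.67, 5.57, 6.70, 5.37, 7.88, 7.88, 4.40, 8.44, 8.44, 4.81, 4.69 and 8.44 in replicate 1 and 3.81, 11.4, 7.87, 6.35, 9.94, 7.27, 7.27, 10.5, 8.62, 8.62, 14.2 and 14.2 in replicate 2. The interval nearest the stop codon had the lowest value of all members in replicate 2, at 3.81, and the 2 intervals nearest the 3' end had the highest of the gene in that replicate, at 14.2. These 12 intervals made 7 sites when shared peaks were joined.

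IGF2BP1, an RNA-binding protein that protects messenger RNAs from decay, had 9 intervals in the 3'UTR at chr17:47128885-47132845, with interval middles from 2097 to 5938 nt after the stop codon. Fold enrichment was 6.99, 5.28, 5.28, 6.33, 10.1, 10.7, 12.7, 12.7 and 7.26 in replicate 1 and 10.5, 10.8, 14.2, 14.2, 15.2, 15.2, 15.2, 7.05 and 8.70 in replicate 2. The highest value of replicate 2, 15.2, came from a single peak that spanned 3 intervals, and the 9 intervals made 4 sites. LINC00657, now called NORAD, is a long non-coding RNA that binds Pumilio proteins. Its 9 intervals lay at chr20:34633520-34636971, with interval middles from 2162 to 5272 nt of a transcript of 5401 nt. Several of them had a near-identical copy in another transcript, so the gene of origin of their reads cannot be told apart. From the 5' end, fold enrichment was 10.6, 6.58, 9.56, 5.22, 5.98, 8.03, 7.67, 7.67 and 9.97 in replicate 1 and 10.2, 14.5, 14.5, 8.54, 10.1, 7.56, 6.60, 4.76 and 4.76 in replicate 2. The motif TGTANATA of Pumilio proteins was present within 50 nt of the middle between both summits in 2 of its 9 intervals, on the transcribed strand. Only 5 of these 9 windows held both summits, and none of the 5 had the motif, a split made after the data were seen.

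**Figure D2:**
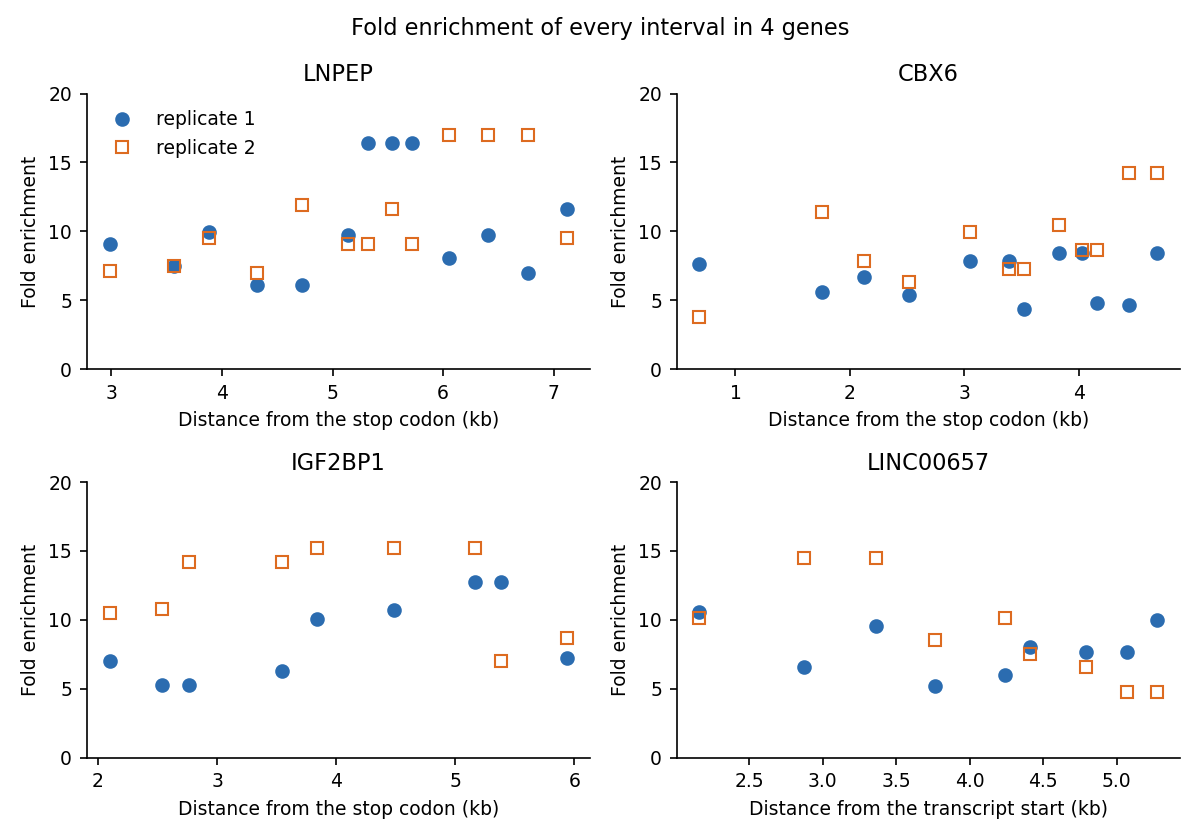
Fold enrichment (vertical axes) of every interval of LNPEP, CBX6, IGF2BP1 and LINC00657 against the distance of its middle in kb from the stop codon or, for LINC00657, from the transcript start, in replicate 1 (filled circles) and replicate 2 (open squares). Equal values at neighbouring positions come from a peak that spans several intervals, such as 17.0 at 3 intervals of LNPEP.

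TFRC, the receptor that takes up transferrin-bound iron, had the highest fold enrichment of the lower replicate among all members. Its 6 intervals lay in the 3'UTR at chr3:195776156-195778708 on the minus strand, with 84.2% of the 3'UTR between the middles of the first and last, and fold enrichment from the stop codon onwards was 8.32, 8.44, 9.56, 8.32, 15.9 and 12.2 in replicate 1 and 15.0, 15.0, 9.53, 9.53, 15.5 and 12.9 in replicate 2. The strongest interval was the same in both replicates, with 15.9 and 15.5. TXLNA, a protein linked to membrane traffic, came next, and its 5 intervals at chr1:32661032-32663821 had 8.31, 4.69, 6.67, 13.8 and 5.98 in replicate 1 and 8.98, 8.98, 9.10, 16.3 and 8.57 in replicate 2. Its interval with 13.8 and 16.3 was the longest of all members at 1723 bp. ZNF609, a zinc finger protein, had 6 intervals at chr15:64974824-64977362, with 13.1, 13.1, 8.86, 4.99, 10.8 and 7.13 in replicate 1 and 6.04, 8.08, 15.4, 15.4, 15.4 and 13.2 in replicate 2. Here the strongest intervals differed, since 13.1 in replicate 1 lay nearest the stop codon and 15.4 in replicate 2 belonged to a peak over 3 later intervals. NFAT5, a transcription factor of the response to osmotic stress, had 2 intervals at chr16:69732400-69732951, and its values of 9.98 and 12.1 in replicate 1 and 10.1 and 12.3 in replicate 2 lay close together in both replicates.

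MARF1 itself differed from most members in the position of its intervals, 17 of 18 of which lay in coding exons. The expressed F-MARF1ΔNYN carries MARF1 coding sequence without the nuclease domain. In the coding exons it carries, RNA of the transgene and of the gene cannot be told apart. From the 5' end, the 12 intervals under KIAA0430 had fold enrichments of 6.10, 15.5, 6.65, 4.22, 7.21, 10.6, 7.75, 5.55, 12.1, 13.2, 9.98 and 6.75 in replicate 1 and 12.9, 12.9, 10.4, 6.68, 12.0, 11.2, 8.04, 8.58, 13.4, 13.9, 11.0 and 10.3 in replicate 2. The 6 under C16orf45 had 8.50, 5.95, 11.7, 9.26, 11.9 and 5.55 in replicate 1 and 7.29, 8.10, 8.08, 8.76, 14.7 and 8.58 in replicate 2. The strongest of these 18 intervals by the lower replicate reached 13.2 and 13.9. MYC, a transcription factor of cell growth, had 4 intervals in coding exons and 1 in its 3'UTR. From the 5' end, these 5 had 4.19, 5.22, 9.43, 9.43 and 4.11 in replicate 1 and 10.2, 10.2, 10.01, 5.39 and 4.53 in replicate 2, and the last, in the 3'UTR, had the lowest values of the 5 in both replicates. The interval of HAUS6 under the same symbol, at chr9:19054554-19054699, had 9.41 and 10.01.

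Some genes whose 3'UTRs the study placed in reporters also had several intervals. MAML1, a coactivator of Notch signalling, had 4 at chr5:179202492-179203844, with 7.68, 9.43, 7.96 and 5.37 in replicate 1 and 10.1, 10.1, 14.3 and 14.3 in replicate 2. ATXN7L3, a subunit of a deubiquitinating module, had 3 at chr17:42269394-42271045 on the minus strand, with 5.17, 4.60 and 5.55 in replicate 1 and 6.36, 13.3 and 7.63 in replicate 2. The middle interval was the strongest of ATXN7L3 in replicate 2 and the weakest in replicate 1. FAF2, a factor of protein degradation at the endoplasmic reticulum, had 2 at chr5:175935066-175935357, with 6.14 and 6.75 in replicate 1 and 8.11 and 8.11 in replicate 2, and a single peak of replicate 2 covered both. CPSF7, a subunit of a cleavage factor for messenger RNA 3' ends, had 2 at chr11:61170762-61171791 on the minus strand. Their fold enrichment was 5.65 and 9.43 in replicate 1 and 7.27 and 8.11 in replicate 2. PGAM1, also placed in a reporter, is not among the 56 symbols. It was a near-identical copy for intervals under PGAM4 and GLT8D2, so for these the gene of origin cannot be told apart. The 2 intervals under PGAM4 had 15.1 and 9.98 in replicate 1 and 11.9 and 8.11 in replicate 2.

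Lists of genes by role gave further examples. Of 11 genes of RNA binding and processing, 5 had 2 or more intervals, 3 had 1 and 3 had none. KIAA0430 had the most intervals in that list, and LARP1, which binds messenger RNAs of the translation machinery, had 4. Of 10 genes of transcription and chromatin, 8 had 2 or more and 2 had 1, with CBX6 highest in number and NFAT5 highest of these 8 in the lower replicate, at 12.1. NOTCH2, with 1 interval, had 23.6 and 19.4. That interval was 3254 bp long, the longest among the symbols with 1, whose median was 106 bp. The number of intervals thus does not give the length of RNA covered. Of 9 signalling genes, 4 had 2 or more, led by ADCY6, an adenylyl cyclase, with 5. WEE1, a kinase that holds back mitosis, had the highest lower-replicate value of these 4, 11.1. Of 8 genes of membrane transport, 5 had 2 or more, of which LNPEP had the most intervals and TFRC the highest lower-replicate value. Of 4 genes of the ubiquitin pathway, 2 had 2 or more, ZYG11B with 3 and FAF2 with 2. Of all 117 symbols in the list, 47.9% had 2 or more intervals, and nothing is read from the counts by role. The lists were drawn up with earlier results of these data known, and their counts carry no test.

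Within symbols, 151 gaps separated neighbouring intervals. From summit to summit, the median distance was 410 bp. The median gap from edge to edge was 208 bp, with a range of 39 to 12140 bp by symbol, and 109 gaps (72.2%, 95% Wilson interval 64.6% to 78.7%) were under 500 bp. Gaps between intervals of the same peak had a median of 85.0 bp in 55 cases, and gaps between intervals without a shared peak had a median of 370.5 bp in 96. The gap of 12140 bp lay between intervals under C16orf45 and held intervals under KIAA0430, since both symbols lie interleaved in MARF1. Counted by GENCODE gene, a choice made after the data were seen, 159 gaps had a median of 217 bp and a highest value of 9982 bp. The 17 gaps of MARF1 then had a median of 1461 bp, and the other 142 had one of 178 bp. In the 48 symbols whose intervals all lay in 1 exon, the median was 170.5 bp.

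**Figure D3:**
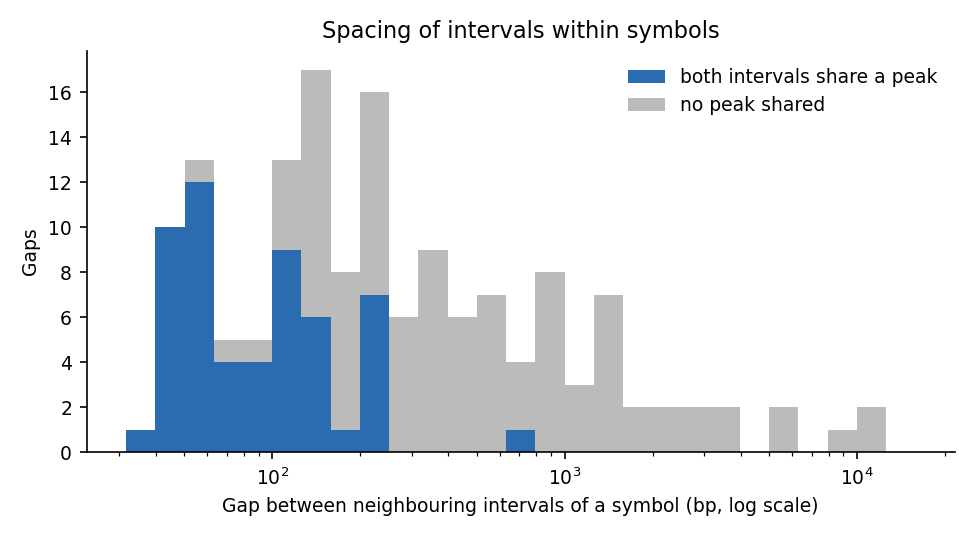
Number of gaps (vertical axis) by their length in bp (horizontal axis, log scale) for the 151 pairs of neighbouring intervals of a symbol, with pairs that share a peak in blue and the others in grey. The 55 blue gaps have a median of 85.0 bp and the 96 grey gaps one of 370.5 bp.

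By GENCODE, 171 of the 208 intervals (82.2%, 95% Wilson interval 76.4% to 86.8%) lay in 3'UTRs, 21 in coding exons, 12 in non-coding exons and 4 in introns. The 21 in coding exons were the 17 of MARF1 and 4 of MYC. For the symbols with 1 interval, the share in 3'UTRs was 88.5%, 95% Wilson interval 78.2% to 94.3%. The intervals of 48 symbols could be placed along a 3'UTR, and their 3'UTRs had a median length of 3602 nt, beside 3576 nt for the 54 symbols with 1 interval in a 3'UTR. Of 167 placed intervals, 45 lay in the first of 3 equal parts of the 3'UTR, 69 in the middle part and 53 in the last. The middle of the first interval lay a median of 1069 nt after the stop codon. Intervals per kb of 3'UTR had a median of 0.88 and ranged from 0.22 to 2.51 by symbol, and from 0.23 to 3.34 in 47 GENCODE genes. Across the 48 symbols, some of which share a 3'UTR, Spearman's rho between 3'UTR length and number of intervals was 0.13.

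**Figure D4:**
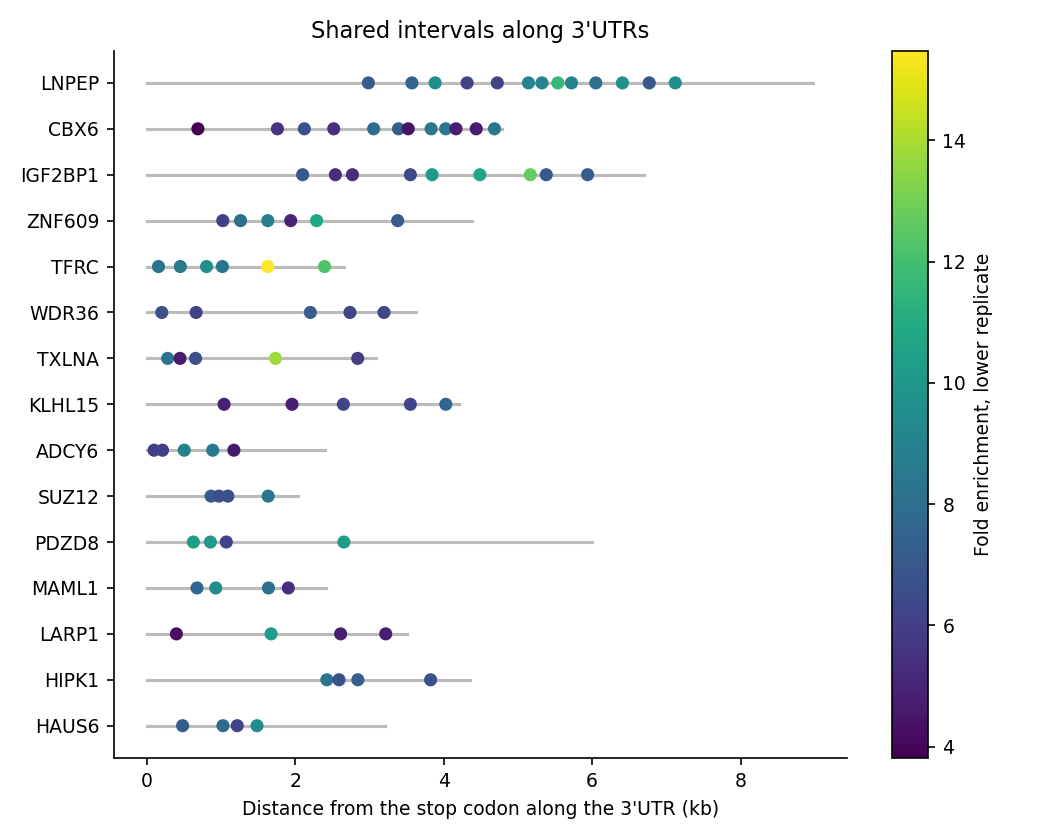
Intervals (points) along the 3'UTR (grey lines, drawn to scale in kb from the stop codon) of the symbols with 4 or more intervals in a 3'UTR, coloured by fold enrichment in the lower replicate. From the middle of the first interval to that of the last, CBX6 and TFRC cover 83.5% and 84.2% of the 3'UTR, while the first middle of LNPEP lies 2983 nt after the stop codon.

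In strength, member intervals had a median fold enrichment of 7.76 in replicate 1 and 8.78 in replicate 2, with ranges of 4.11 to 18.5 and 3.81 to 17.0. The lower of both values had a median of 7.09 in the 208 intervals and 5.93 in the 61 intervals of other symbols. A q-value below 0.001 in both replicates was reached by 195 of 208 member intervals (93.8%, 95% Wilson interval 89.6% to 96.3%), against a background of 89% of all 282 intervals. Since the calls chose the members, nothing is read from this. Solved from fold enrichment and p-value, reads at the summit had a median of 13 in replicate 1 and 16 in replicate 2. At most 1 control read was present at 154 of 207 solved intervals in replicate 1 and 175 of 205 in replicate 2. Among all peaks, 35.9% of those in replicate 1 and 46.8% of those in replicate 2 were shared. In exons of 51 GENCODE genes that held member intervals, a set without LCOR and IRS2, 180 of 242 and 172 of 224 peaks were shared, a share tied to how the members were chosen.

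**Figure D5:**
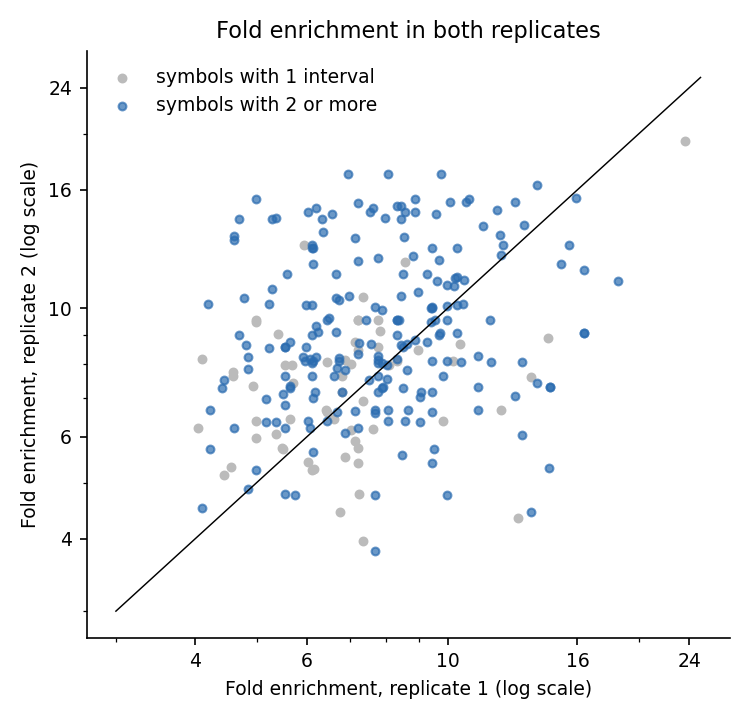
Fold enrichment in replicate 1 (horizontal axis) and replicate 2 (vertical axis), both on log scales, for the 208 intervals of symbols with 2 or more (blue) and the 61 of symbols with 1 (grey); the line marks equal values. Replicate 2 was higher in 140 of the 208 member intervals.

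Replicates placed the strongest interval of a gene alike in 35 of 56 symbols (62.5%, 95% Wilson interval 49.4% to 74.0%), where intervals of a shared peak could tie. With no ties allowed, a choice made after the data were seen, the number was 20. Over the intervals of a gene, Spearman's rho between the fold enrichments of the replicates was 0.68 for KIAA0430 (n = 12), 0.20 for CBX6 (n = 12), 0.14 for IGF2BP1 (n = 9), 0.0028 for LNPEP (n = 13) and -0.063 for LINC00657 (n = 9). Between the reads at the summits it was 0.48 (n = 11), 0.37, 0.26, 0.20 and 0.85 in the same order, so the value for LINC00657 depends on the measure. Intervals of a gene share libraries and, in part, peaks, so these are descriptions. Summits were also not always inside the interval: 116 of 208 held both (55.8%, 95% Wilson interval 49.0% to 62.4%), and in these the summits lay a median of 20 bp apart.

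Sequence in windows at the middle between both summits was compared with windows outside every peak in the same 3'UTRs. Windows outside peaks were available for 45 of the 48 symbols. Medians and motif shares were pooled over windows, so symbols can weigh differently in the 2 sets. Within 50 nt on either side of that middle, GC content had a median of 42.6% over 167 intervals, beside 38.6% in 913 windows of equal length. In 33 of 45 symbols with such windows (73.3%, 95% Wilson interval 59.0% to 84.0%) the median at the intervals was higher. Only 98 of the 167 windows (58.7%, 95% Wilson interval 51.1% to 65.9%) held both summits. In these 98, a split made after the data were seen, the median GC content was 43.1%, and 31 of 42 symbols had a higher median than outside. Over the 88 intervals that themselves held both summits, the median was lower, at 41.6%. A run of GGGG occurred in 53 of all 167 windows (31.7%) and 22.2% of the others, and ATTTA, found in AU-rich elements, in 18 (10.8%) and 17.9%. TGTANATA was present in 10 (5.99%) and 2.85%, and the polyadenylation signal AATAAA in 8 (4.79%) and 7.78%. The let-7 seed match CTACCTC was in none of the 167 and in 7 of the 913. In the 98 windows with both summits, GGGG was found in 25 (25.5%, 95% Wilson interval 17.9% to 35.0%), ATTTA in 8 (8.16%, 4.19% to 15.29%), TGTANATA in 4 (4.08%, 1.60% to 10.03%) and AATAAA in 6 (6.12%, 2.84% to 12.7%). For GGGG, the interval of the windows outside peaks, 19.66% to 25.04%, lay apart from that of all 167 windows (25.16% to 39.1%) but overlapped that of the 98. For ATTTA, the interval outside peaks, 15.51% to 20.5%, overlapped that of the 167 (6.93% to 16.4%) and lay apart from that of the 98. The intervals outside peaks for TGTANATA and AATAAA overlapped those of both sets, and nothing is read from any of the 4. On the complementary strand, the shares in the 167 windows and elsewhere were 29.3% and 22.5% for GGGG, 18.0% and 21.0% for ATTTA, 2.40% and 1.64% for TGTANATA, and 7.19% and 12.8% for AATAAA. Windows of a gene overlap in part and are not independent, no test was made, and a match does not show a binding site.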

How the data were processed

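Single-end iCLIP libraries of 2 F-MARF1ΔNYN and 2 control replicates were processed by the authors. The submitters' processing notes name Trimmomatic 0.32, STAR 2.3.0e, SAMtools 1.9, Picard 2.10.7, MACS2 2.1.1 and HOMER 4.10 on hg19. Each replicate was called against the control of the same number, without pooling. The deposited peaks hold the authors' score, the fold enrichment (a ratio over local background) and −log10 p-value and −log10 q-value at the summit. The largest q-values in the lists were 0.0489 and 0.0433. Library depth is not given in the files used here.

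Peaks of both replicates were joined to the final list at an overlap of 1 bp. Reads at a summit were solved from fold enrichment and p-value, with fold enrichment taken as weighted reads plus 1 over background plus 1. This gave a solution within 0.001 of the −log10 p-value for 717 of 719 and 528 of 534 peaks. Where the background is low, fold enrichment taken this way mostly follows the number of reads. The solver was tested on data simulated with the same formula, which cannot show whether the deposited values follow it. The middle base of each interval was annotated with GENCODE release 44. Copies were transcripts matching at 95% identity over 90% of an interval of at least 30 bp, by blastn 2.17.0. Wilson intervals (scipy 1.17.1) are at 95% and cover counting error only. Every interval is described for symbols with 6 or more intervals and for the 5 members ranked first by the lower replicate's fold enrichment. The same holds for symbols with 2 or more intervals among the genes the study cloned as reporters. The members and lists were chosen with earlier results of these data known, and no test was made. Alternatives covered overlap, q-value, merging, annotation and replicates.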

Additional observations from a re-analysis of the deposited data

How the results depend on the processing

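No paired analysis was possible because the deposited values are contrasts of same-numbered libraries, and none belongs to a library alone. Requiring a reciprocal overlap of 50% left 27 symbols with 79 intervals, and counting intervals under 500 bp apart once left 29 symbols with 72. The peaks of a single replicate, assigned by GENCODE gene, gave 102 to 120 genes with 373 to 438 peaks. The other alternatives for these counts stayed within 1.5 times. The median gap was 410 bp from summit to summit, 170.5 bp in symbols within 1 exon, 205 bp at q below 0.001, 295 bp with intervals under 100 bp apart joined, 229 bp as 1 median per symbol, 217 bp between neighbours by GENCODE gene (chosen after seeing the data), and 217 to 218 bp between peaks of a single replicate. The last pair lay so close that any other gap counted as a change. Median fold enrichment was 8.38 as the mean of both replicates on the log2 scale and 7.76 to 8.78 in single replicates. The strongest interval was the same in 16 of 30 symbols with 3 or more intervals, and in 20 of 56 with no ties allowed, an alternative chosen after seeing the data. The share in 3'UTRs was 69.2% by the authors' HOMER annotation and 89.5% without MARF1. Where an alternative's own construction does not show the cause, the cause was not tested.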
